A study of Mus musculus with 2 samples.

Results

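The Fc receptor genes of the mouse brain are described here across the immune cells of control and Arpc4-deficient animals. They were taken by symbol from the count tables and comprised 6 genes, Fcgr1, Fcgr2b, Fcgr3, Fcgr4, Fcer1g and Fcgrt, of the 32285 genes counted. Each of the 6 had 1 row, and all were measured in all 8 mice. CD45+ cells were sorted from Percoll-purified brains, labelled per animal with lipid-anchored oligonucleotide tags, pooled, and sequenced as 3′ ends of single-cell transcripts counted by unique molecular identifier (UMI).

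The 4 control mice were Cre-negative Arpc4 fl/fl animals. The 4 knockout mice, Arpc4ΔCx3cr1 (Arpc4dCx3cr1 in the labels), carried Tg(Cx3cr1-Cre) on the same Arpc4 fl/fl background, so every animal had floxed Arpc4 alleles and the groups differed in the transgene. Cx3cr1 drives this Cre in brain myeloid cells from early development, and monocytes can pass through a Cx3cr1-positive stage as well, so the driver is not specific to microglia. All mice were littermates, 12 weeks of age. The controls and 3 of the knockouts were male, and 1 knockout was female. As the 8 tags were read in 1 pooled library, differences in capture between separate libraries did not enter the comparison.

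The 8 tables held 19864 cells, none shared between mice, with 5251527 to 12878691 UMIs per mouse. After clustering, 15752 cells were called microglia-like, 412 CAM-like (CNS-associated macrophages), 346 monocyte-like, 309 T and NK cell-like and 79 B cell-like, the last pair being summed as lymphocyte-like. Arpc4 itself had 224 to 241 CPM (UMIs per 1000000 UMIs of the summed cells) in control microglia-like cells and 131 to 147 CPM in the knockouts, without overlap. No fall passed edgeR's test in 2 other classes (CAM-like, log2 fold change 0.29, SE 0.21, adjusted p = 0.638, and monocyte-like, -0.038, SE 0.19, adjusted p = 0.965). Their sums were small, with 90559 to 449323 and 88958 to 808444 UMIs per mouse. Whether 3′ UMIs report the loss of the floxed part of Arpc4 was not tested, so these RNA values do not measure deletion. At the protein level, the paper reported by flow cytometry that ARPC4 and ARPC2 were efficiently depleted in knockout microglia. Knockout mouse 1 stood apart. It had 1407 CPM of Xist in microglia-like cells where the other 7 mice had 3.55 to 14.4 CPM. Of Ddx3y it had 4.25 CPM, where the others had 66.2 to 84.1 CPM. By these sex-linked genes it was the female knockout, which the labels do not mark. The paper left its female knockout out of downstream analysis, whereas all mice are used here. Knockout mouse 1 also supplied 97.3% of the cells of microglia-like cluster 5 when mice were weighted equally. Its sex, its tag and its own biology cannot be told apart, and the members' fold changes that passed the test are therefore also given without it.

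Fc receptors bind the constant part of antibodies. Fcgr1, Fcgr3 and Fcgr4 encode activating IgG receptors of high, low and intermediate affinity, which signal through the tyrosine-based motif of a shared γ-chain encoded by Fcer1g. Fcgr2b encodes the inhibitory IgG receptor, which carries its own inhibitory motif. Fcgrt encodes the heavy chain of the neonatal Fc receptor FcRn, which pairs with B2m and returns IgG and albumin from endosomes to the cell surface. In the brain, microglia and border macrophages use the activating receptors to take up antibody-coated material, and interferons are known inducers of Fcgr1 and Fcgr4.

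In mm10, 4 of the genes lie together on chromosome 1: Fcgr2b at chr1:170958617-170976547 (minus strand), Fcgr4 at chr1:171018920-171029761 (plus strand), Fcgr3 at chr1:171051174-171064935 (minus strand) and Fcer1g at chr1:171229572-171234365 (minus strand). Fcgr1 lies at chr3:96282909-96293969 (minus strand) and Fcgrt at chr7:45092990-45103851 (minus strand). The reads fall at the 3′ ends of these genes, so isoforms were not separated. An annotated antisense gene overlaps Fcgr2b (Gm38204) and Fcgrt (Gm45669), and neither antisense gene had enough UMIs in microglia-like cells to be tested.

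The 250 bases before the transcription start are printed for Fcgr4 and Fcgrt, the member that rose most and the member that fell in knockout microglia-like cells, and for Fcgr1, the high-affinity receptor, which interferons also induce. The sequences are RefSeq promoters on GRCm38.p6, 5′ to 3′ on the strand of the gene, from chr1:171018676-171018925 (plus) for Fcgr4, chr7:45103823-45104072 (minus) for Fcgrt and chr3:96293970-96294219 (minus) for Fcgr1. Capitals mark matches on either strand to TTCNNNGAA (the interferon-γ-activated type), GAAA repeated after 2 bases of any kind (the interferon-stimulated response type) or GAGGAA (a PU.1-type core), and no matches overlapped.
Fcgr4: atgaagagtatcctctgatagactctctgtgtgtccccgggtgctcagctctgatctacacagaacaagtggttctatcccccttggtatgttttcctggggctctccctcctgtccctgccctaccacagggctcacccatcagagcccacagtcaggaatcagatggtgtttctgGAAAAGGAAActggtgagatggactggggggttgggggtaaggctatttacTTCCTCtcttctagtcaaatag
Fcgrt: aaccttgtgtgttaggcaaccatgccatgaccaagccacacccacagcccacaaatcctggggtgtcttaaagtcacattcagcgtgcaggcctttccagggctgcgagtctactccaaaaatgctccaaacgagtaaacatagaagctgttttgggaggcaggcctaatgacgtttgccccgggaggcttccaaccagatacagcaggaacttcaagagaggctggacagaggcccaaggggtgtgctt
Fcgr1: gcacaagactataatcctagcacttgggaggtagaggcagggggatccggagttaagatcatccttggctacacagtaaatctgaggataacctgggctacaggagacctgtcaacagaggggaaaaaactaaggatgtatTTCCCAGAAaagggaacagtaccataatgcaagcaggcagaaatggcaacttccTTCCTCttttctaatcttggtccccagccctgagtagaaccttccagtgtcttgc
Fcgr4 held a match to the GAAA repeat starting 73 bases before the transcription start and a GAGGAA match at 22 bases. Fcgr1 held a TTCNNNGAA match at 109 bases and a GAGGAA match at 55 bases, while Fcgrt held none of the 3 motifs. Of the other members, Fcgr3 held a GAGGAA match at 6 bases, and Fcgr2b and Fcer1g held none. The windows of Fcgr3 (chr1:171059404-171059653) and Fcgr2b (chr1:170976072-170976321) lay wholly within the gene spans given above. Both windows thus precede a start inside the gene and not its outermost start. Among all 32851 promoter windows of this length, 7.02% held TTCNNNGAA, 2.98% held the GAAA repeat and 23.3% held GAGGAA. The matches describe the letters only and are not evidence of binding.

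Fcgr4 was the member that rose most in Arpc4-deficient microglia. It had 13.9, 15.8, 17.8 and 16.4 CPM in the microglia-like cells of control mice 1 to 4, and 164, 60.3, 49.0 and 52.7 CPM in those of knockout mice 1 to 4. Every knockout mouse lay above every control mouse, and knockout mouse 1 lay far above the other 3 knockouts. The log2 fold change was 2.44 (SE 0.38, edgeR quasi-likelihood test, adjusted p = 0.000415). Without knockout mouse 1 it was 1.85 (SE 0.090, adjusted p = 2.25e-09), and it passed the threshold in each of the 8 fits that left out 1 mouse. Of the 12638 genes tested in these cells, 45.2% passed the threshold of an adjusted p under 0.05 (22.5% higher and 22.7% lower in the knockout), and 3 of the 6 Fc receptor genes did so, 2 higher and 1 lower. A fold above 2 at that threshold, reached by 12% of all genes, was seen for Fcgr4 and Fcgrt. After scaling by TMM, the values of control and knockout mice did not overlap for 4 members, against 43.4% of all genes, and for Fcgr1 and Fcer1g among them they overlapped in CPM without that scaling. A sum over cells does not tell fewer cells with a transcript from less RNA per cell.

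Fcgrt fell. Control mice 1 to 4 had 70.9, 68.6, 69.4 and 68.8 CPM in microglia-like cells, and the knockouts had 28.7, 39.9, 30.3 and 26.9 CPM, with no overlap and with knockout mouse 1 among the others. The log2 fold change was -1.04 (SE 0.10, adjusted p = 1.42e-05), it was -0.9992 (SE 0.097) without knockout mouse 1, and it passed in each fit that left out 1 mouse. B2m, the partner chain of FcRn, rose in the same cells by 1.51 on the log2 scale (SE 0.085, adjusted p = 4.28e-07), from 1142 ± 48.9 to 3256 ± 381 normalised CPM (SD, n = 4), and by 1.58 without knockout mouse 1, so the heavy chain fell while its partner rose.

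Fcer1g, the shared γ-chain, had 2419, 2395, 2483 and 2414 CPM in the controls and 3105, 2496, 2448 and 2501 CPM in the knockouts. The groups overlapped in these values. The log2 fold change of 0.22 (SE 0.080) passed with an adjusted p of 0.0414. It was 0.14 without knockout mouse 1 (adjusted p = 0.0196) and did not pass without any 1 of the control mice (adjusted p = 0.0766 to 0.102) or without knockout mouse 4 (adjusted p = 0.0531).

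The other activating receptors and the inhibitory receptor did not pass the test in microglia-like cells. Fcgr1 had 287 to 299 CPM in the controls and 390, 295, 274 and 290 CPM in the knockouts (log2 fold change 0.20, SE 0.098, adjusted p = 0.126, and 0.078 without knockout mouse 1, adjusted p = 0.179). Fcgr3 had 567 to 626 CPM in the controls and 731, 477, 551 and 453 CPM in the knockouts (-0.0078, SE 0.13, adjusted p = 0.972). Fcgr2b had 172 to 188 CPM in the controls and 395, 163, 163 and 142 CPM in the knockouts (0.37, SE 0.28, adjusted p = 0.300). For Fcgr3 and Fcgr2b, knockout mouse 1 was above and the other 3 knockouts below all controls. Without it, the log2 fold changes were -0.17 for Fcgr3 (SE 0.067, adjusted p = 0.0555) and -0.087 for Fcgr2b (SE 0.058, adjusted p = 0.234).

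**Figure D1:**
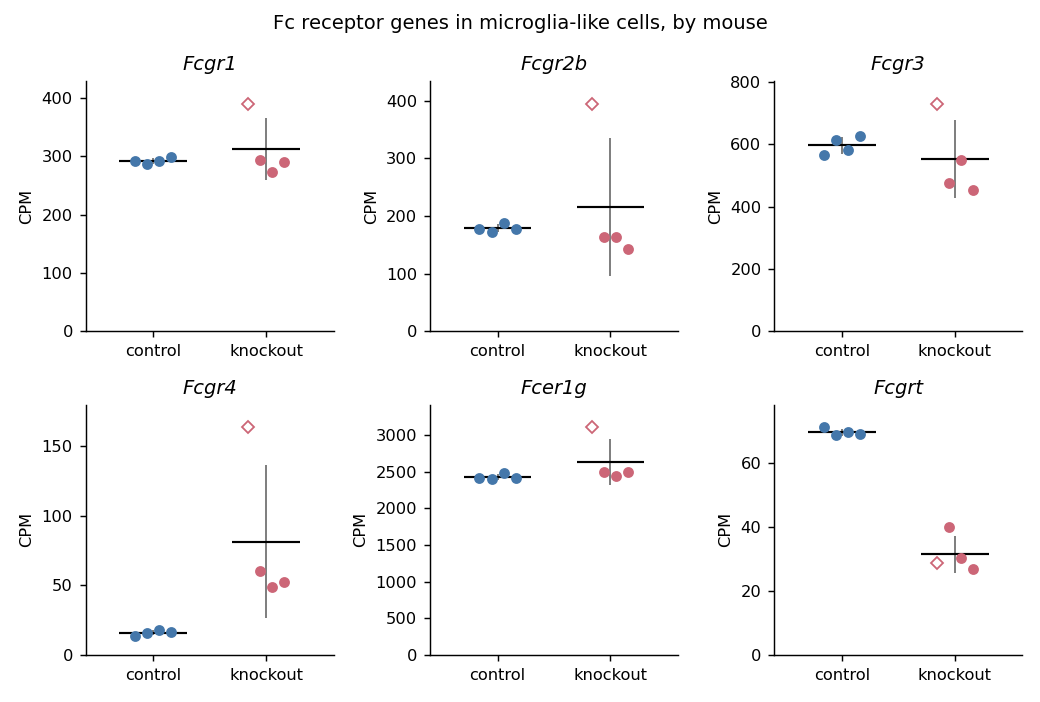
CPM of the 6 Fc receptor genes in the microglia-like cells of each mouse, with horizontal lines for the mean and vertical lines for the SD of 4 mice per genotype. The open diamond is knockout mouse 1. Fcgr4 was higher (at least 49.0 against at most 17.8 CPM) and Fcgrt lower (at most 39.9 against at least 68.6 CPM) in every knockout mouse.

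Cells in the knockout had more UMIs, with a median of 4529 per microglia-like cell against 3836 in the control, so the share of cells with a transcript was compared after thinning every cell to 2000 UMIs, which left out 283 control and 125 knockout cells. Fcgr4 was then found in 2.28%, 3.09%, 3.18% and 3.36% of microglia-like cells of control mice 1 to 4, and in 27.7%, 11.5%, 9.17% and 9.36% of those of the knockouts. Unthinned, Fcgr4 was found in 5.99% of the pooled control and 27.8% of the pooled knockout cells. Fcgrt was found in 13.99%, 12.2%, 13.2% and 13.3% of control cells and in 5.08%, 6.95%, 6.62% and 4.55% of knockout cells after thinning. For both genes the groups did not overlap. An exact two-sided permutation test gave p = 0.0286, the smallest that 4 against 4 mice can give, before adjustment for the 6 genes. Shares were computed for these 6 genes only, so they have no background over all genes. Fcgr1 was found in 44.5% ± 0.88 of control and 44.8% ± 5.11 of knockout cells (SD, n = 4 mice), Fcgr3 in 68.9% ± 1.67 and 65.6% ± 6.54, Fcgr2b in 30.1% ± 1.05 and 33.2% ± 13.5, and Fcer1g in 98.0% ± 0.11 and 98.3% ± 0.67, and these groups overlapped. Without knockout mouse 1, the shares of Fcgr1, Fcgr2b and Fcgr3 in the remaining 3 knockouts were below all controls, the differences of the means being -2.26, -3.68 and -6.39 percentage points (exact p = 0.0571 each, the smallest that 3 against 4 mice can give).

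As a background for these shares, cells with a Cd3d, Cd3e or Cd3g transcript and no NK marker were examined at the same 2000 UMIs. In these T cells, Fcgr4 was found in 1 of 69 control cells (1.45%, 95% exact interval 0.0367% to 7.81%). It was found in 4 of 106 knockout cells (3.77%, 1.04% to 9.38%). Intervals cover counting error only. The Fcgr4 share in control microglia-like cells lay inside the interval of these T cells, which is too wide to tell it from the background or to place it there. The shares in knockout mice 1 and 2 lay above the interval of the knockout T cells and those in knockout mice 3 and 4 inside its upper end, while the pooled knockout share in microglia-like cells was 14.4% (13.6% to 15.2%). Fcgrt was found in 3 of 69 control T cells (4.35%, 0.906% to 12.2%) and in 2 of 106 knockout T cells (1.89%, 0.229% to 6.65%), and the shares in microglia-like cells of control mouse 2 and of knockout mice 1, 3 and 4 lay inside the interval of their genotype, while those of the other 3 controls and of knockout mouse 2 lay above it. In droplets without a cell (at most 100 UMIs), Fcgr4 made up 59.4 CPM of the free RNA and Fcgrt 57.5 CPM. Subtracting 10% of each sum with that profile gave log2 fold changes of 3.01 for Fcgr4 and -1.20 for Fcgrt.

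The 3 activating receptors together had 4.75 to 5.33 UMIs for each UMI of Fcgr2b in the control mice. The ratio was 3.25 in knockout mouse 1 and 5.11, 5.35 and 5.59 in knockout mice 2 to 4, so the groups overlapped. Within the activating receptors, Fcgr4 contributed 1.59% to 1.99% of UMIs in the controls and 5.61% to 12.7% in the knockouts. Among cells thinned to 2000 UMIs of knockout mice 2 to 4, Fcgr4 was found in 11.96%, 11.1% and 9.43% of those with an Fcgr1 UMI and in 11.2%, 7.79% and 9.30% of those without, where no UMI at this depth does not mean that the receptor was absent.

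**Figure D2:**
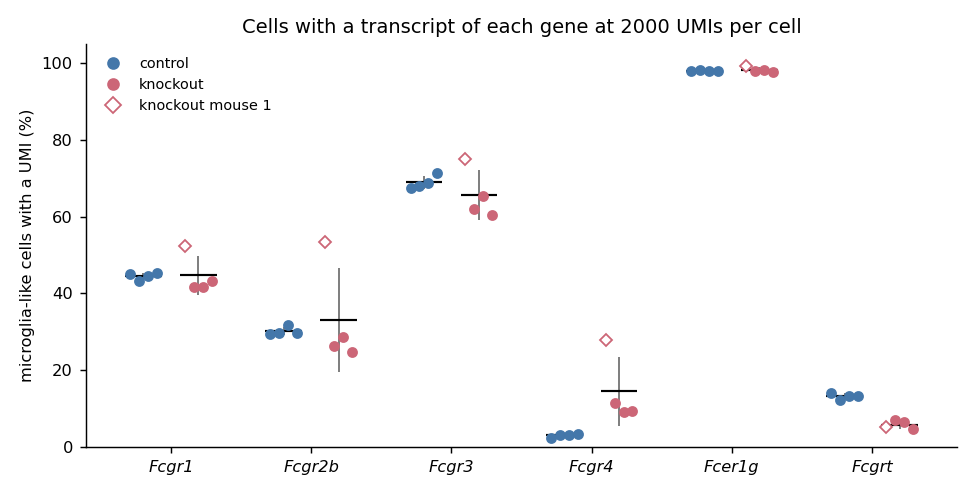
Share of microglia-like cells with at least 1 UMI of each gene, in percent, after thinning every cell to 2000 UMIs, with the mean and SD of 4 mice per genotype and knockout mouse 1 as an open diamond. Fcgr4 was found in 2.28% to 3.36% of control and 9.17% to 27.7% of knockout cells, and Fcgrt in 12.2% to 13.99% and 4.55% to 6.95%.

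The microglia-like cells fell into 10 clusters, formed without the 6 genes. Clusters 1, 2 and 3 came from control mice (3.04% to 4.25% knockout cells, mice weighted equally), and clusters 0, 4, 5, 8, 10, 11 and 15 mainly from knockout mice (77.5% to 99.9%). Because cells were assigned by their whole expression, the levels by cluster are a description without a test. Pooled over the knockout mice, Fcgr1 had 745 CPM and Fcgr4 173 CPM in cluster 11, led by Ifit3, Rsad2 and Cxcl10, genes that interferons induce. Fcgr1 had 839, 681, 787 and 669 CPM in that cluster in knockout mice 1 to 4, against 215 to 245 CPM in the largest knockout cluster, cluster 0. Fcgr4 had 278, 122, 147 and 112 CPM in cluster 11 and 71.5, 57.6, 41.1 and 47.0 CPM in cluster 0. The control cells of cluster 11 had Fcgr1 at 558 and 828 CPM and Fcgr4 at 72.0 and 162 CPM in control mice 2 and 4, the only controls with at least 10 such cells.

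Fcgr4 reached a similar level in cluster 5, with 157 CPM pooled over the knockout mice. Knockout mouse 1 supplied 97.3% of the cells of that cluster when mice were weighted equally, and had 159 CPM there. Knockout mice 2 and 4, with few such cells, had 168 and 84.3 CPM. Fcgr4 was 57.7 to 76.0 CPM in cluster 10 of knockout mice 2 to 4 and 232 CPM in that of knockout mouse 1, and 58.6 to 78.5 CPM in cluster 4 of all 4. Clusters 10 and 4 were led by Cst7, a gene of disease-associated microglia. In clusters 1, 2 and 3 no control mouse had more than 21.8 CPM. Control cells that fell into knockout-rich clusters had Fcgr4 at 15.8 to 67.4 CPM in cluster 0 and 43.3 and 64.2 CPM in cluster 4 of control mice 3 and 4. Fcgr2b had 403 CPM in cluster 5 of knockout mouse 1, and that mouse also had 378 CPM in cluster 4 against 149 to 175 CPM in the other 3 knockouts.

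Fcgrt had 83.4 to 114 CPM in cluster 3 and 51.8 to 58.8 CPM in cluster 1 of the control mice. In cluster 0 of the knockout mice it had 27.8 to 34.7 CPM, and in cluster 8, led by Ccl3 and Ccl4, it had 18.5 to 26.2 CPM. Control cells in cluster 0 had Fcgrt at 27.6 to 70.8 CPM. Fcer1g spread from 1727 CPM in cluster 1 of knockout mouse 3 to 5103 CPM in cluster 10 of knockout mouse 1. The median UMI count per cell also differed between clusters, from 2628 in cluster 10 to 5895 in cluster 8, and its part in these levels was not tested.

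**Figure D3:**
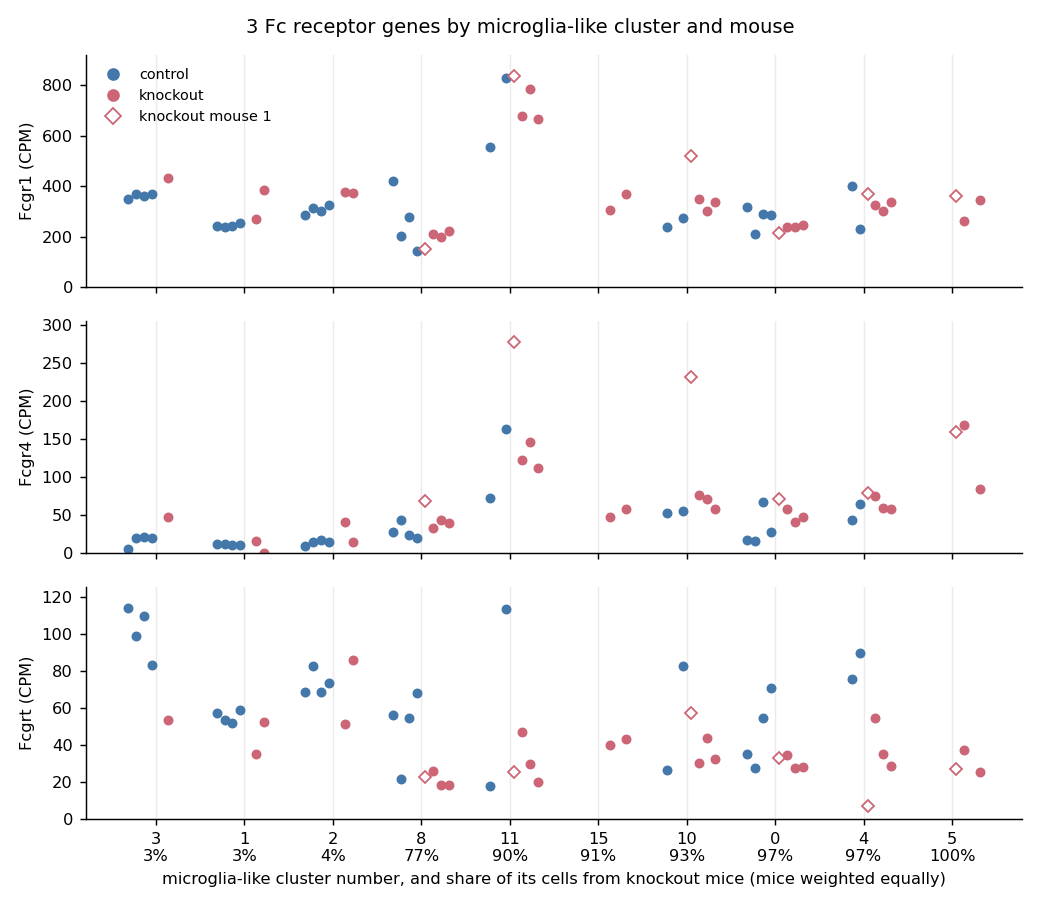
CPM of Fcgr1, Fcgr4 and Fcgrt in each microglia-like cluster, 1 point per mouse with at least 10 cells there, ordered by the share of cells from knockout mice. In cluster 11, Fcgr1 had 669 to 839 CPM and Fcgr4 112 to 278 CPM in the knockouts.

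Across cell classes of the control mice, Fcgr1 was alike in CAM-like (301 ± 20.2 CPM, SD, n = 4) and microglia-like cells (293 ± 5.19 CPM), whose values overlapped, and lower in lymphocyte-like (92.3 ± 20.02 CPM) and monocyte-like cells (64.8 ± 19.4 CPM), which overlapped each other. Fcgr3 was likewise higher in these 2 classes than in the others, with 598 ± 27.3 CPM in microglia-like and 497 ± 57.9 CPM in CAM-like cells, which overlapped, 196 ± 50.8 CPM in lymphocyte-like and 151 ± 62.6 CPM in monocyte-like cells. Fcgr2b was highest in CAM-like cells (395 ± 50.2 CPM), above monocyte-like (203 ± 60.6 CPM) and microglia-like cells (179 ± 6.54 CPM), which overlapped, and lymphocyte-like cells (89.7 ± 27.8 CPM).

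Fcgrt was highest in CAM-like cells as well, at 218 ± 29.5 CPM, then in monocyte-like (116 ± 21.2 CPM), microglia-like (69.4 ± 1.05 CPM) and lymphocyte-like cells (28.6 ± 16.2 CPM), and none of these neighbours overlapped. Fcgr4 was instead highest in monocyte-like cells, at 89.3 ± 25.9 CPM, against 35.4 ± 21.1 CPM in CAM-like, 16.0 ± 1.62 CPM in microglia-like and 9.06 ± 3.52 CPM in lymphocyte-like cells, of which CAM-like and microglia-like values overlapped. Fcer1g had 3473 ± 109 CPM in CAM-like, 2500 ± 178 CPM in monocyte-like, 2428 ± 38.2 CPM in microglia-like and 1403 ± 133 CPM in lymphocyte-like cells, with monocyte-like and microglia-like values overlapping.

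**Figure D4:**
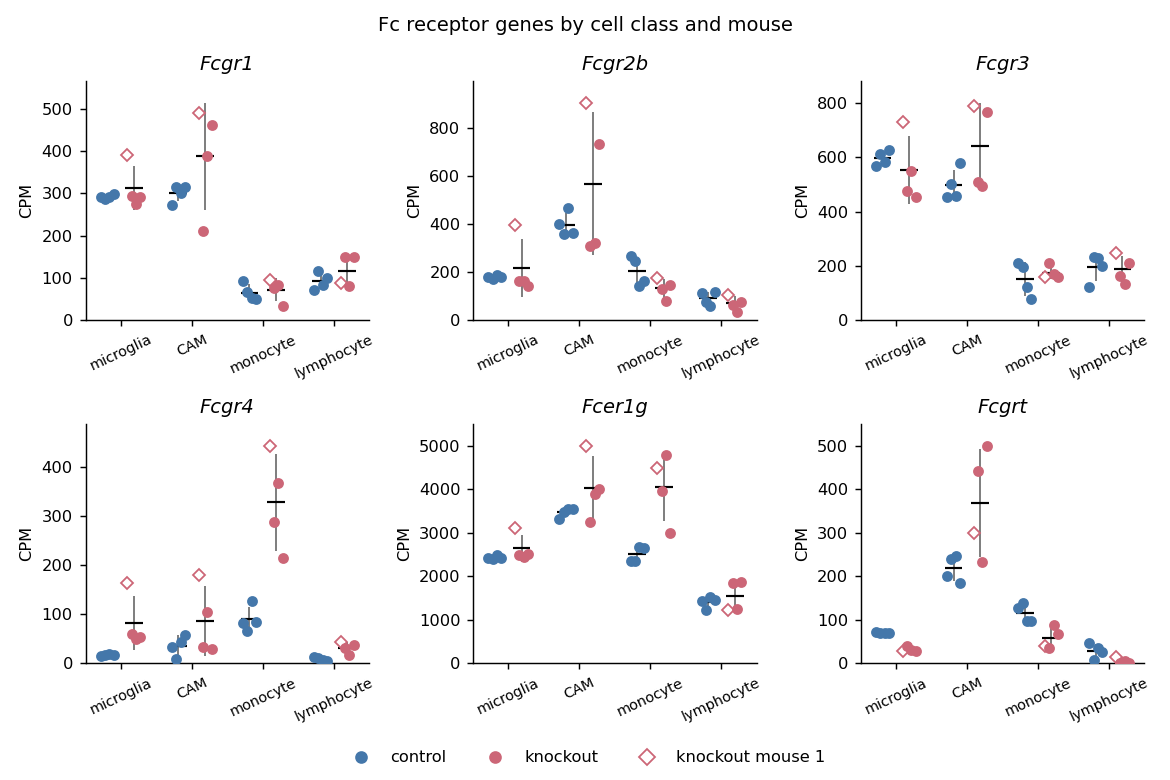
CPM of the 6 Fc receptor genes by cell class, mouse and genotype, with the mean and SD of 4 mice and knockout mouse 1 as an open diamond. Fcgr2b and Fcgrt peaked in CAM-like cells and Fcgr4 in monocyte-like cells of the control mice (395, 218 and 89.3 CPM on average).

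In CAM-like cells no member passed the test, where 1.06% of 3409 genes did. The sums held 21 to 112 cells and 90559 to 449323 UMIs per mouse. Fcgrt had 202, 238, 247 and 185 CPM in the controls and 299, 442, 232 and 500 CPM in the knockouts (log2 fold change 0.74, SE 0.23, adjusted p = 0.141, unadjusted p = 0.0040, and 0.77 without knockout mouse 1, adjusted p = 0.147). Knockout mouse 3 lay within the controls and the other 3 above them. Fcgr2b was 904 and 731 CPM in knockout mice 1 and 4 and 309 and 322 CPM in knockout mice 2 and 3, on either side of the control range of 358 to 465 CPM. Fcgr4 was under the count filter, with 7.69 to 58.1 CPM in the controls and 27.8 to 179 CPM in the knockouts.

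The genotype effect on Fcgrt differed between CAM-like and microglia-like cells. In a fit over both classes with mouse as a term, the log2 fold change in CAM-like cells exceeded that in microglia-like cells by 1.72 (SE 0.22, adjusted p = 4.20e-11), where 5.73% of 11105 genes passed, and by 1.65 without knockout mouse 1 (adjusted p = 1.24e-10). The corresponding difference for Fcgr4 was -1.10 (SE 0.38, adjusted p = 0.0693) and did not pass. Marker sums of the CAM-like class varied among the knockouts. The 8 CAM markers summed to 6190 to 7133 CPM in the controls and 4585 to 13021 CPM in the knockouts. Red blood cell markers summed to at most 11.5 and 445 CPM. The part of these markers in the Fcgrt difference was not tested, and that difference was not refitted under another clustering.

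In monocyte-like cells, Fcgr4 rose, Fcer1g rose and Fcgrt fell, against 7.34% of 3079 genes that passed (2.7% higher and 4.64% lower). Fcgr4 had 81.6, 65.4, 126 and 84.0 CPM in the controls and 443, 288, 367 and 214 CPM in the knockouts, without overlap (log2 fold change 1.76, SE 0.27, adjusted p = 0.00256, and 1.55 without knockout mouse 1, adjusted p = 0.00929). After thinning to 2000 UMIs Fcgr4 was found in 20% to 31.4% of the cells of each control mouse and in 42.9% to 61.1% in each knockout. Pooled over mice, it was found in 28 of 112 control cells (95% exact interval 17.3% to 34.1%) and in 119 of 228 knockout cells (45.5% to 58.8%). These intervals cover counting error only, and knockout mouse 1 supplied 114 of the 232 knockout cells before thinning. Fcer1g had 2345 to 2666 CPM in the controls and 3001 to 4791 CPM in the knockouts (0.54, SE 0.14, adjusted p = 0.0275). Fcgrt had 97.6 to 139 CPM in the controls and 33.8 to 87.3 CPM in the knockouts (-1.20, SE 0.32, adjusted p = 0.0352). The last pair lost the call in most fits that left out 1 mouse, each passing in 2 of 8, and without knockout mouse 1 their log2 fold changes were 0.47 and -0.93 (adjusted p = 0.105 and 0.127).

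Some marker levels of the monocyte-like class differed between the genotypes. Its sums held 14 to 114 cells per mouse. The 6 dendritic cell markers summed to 861 to 1495 CPM in the controls and 147 to 618 CPM in the knockouts, and the difference lay mainly in Cd209a, at 707 to 1290 CPM and at 17.3 to 354 CPM, while Flt3, Xcr1, Clec9a and Zbtb46 overlapped between the groups. Of the monocyte markers, Plac8 rose (log2 fold change 1.55, SE 0.27, adjusted p = 0.00437) and Ccr2 fell (-1.05, SE 0.22, adjusted p = 0.0101), while Ear2, found in patrolling monocytes, gave 0.082 (SE 0.26) and did not pass. Whether the kinds of cell in the class or the RNA per cell differed, and their part in the Fc receptor values, was not tested.

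Fcgr2b gave -0.79 in monocyte-like cells (SE 0.30, adjusted p = 0.145), with 142 to 265 CPM in the controls and 77.0 to 174 CPM in the knockouts. The genotype effect on Fcgr2b nonetheless differed from that in microglia-like cells, by -1.25 (SE 0.29, adjusted p = 0.00167), where 6.99% of 11441 genes passed, and by -1.11 without knockout mouse 1 (adjusted p = 0.0152). The differences for Fcgr4 (-0.63, SE 0.31, adjusted p = 0.291) and Fcgrt (-0.15, SE 0.33, adjusted p = 0.908) did not pass.

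In lymphocyte-like cells none of the 4 members that could be tested passed, where 2.96% of 4725 genes did, and the log2 fold changes ran from -0.23 for Fcgr2b to 0.36 for Fcgr1. Fcgr4 (5.24 to 12.96 CPM in the controls and 17.1 to 42.7 CPM in the knockouts) and Fcgrt (7.30 to 45.3 and 0 to 13.1 CPM) were under the count filter. The 12 microglia markers summed to 9393 to 11002 CPM in the lymphocyte-like cells of the controls and 6653 to 8542 CPM in those of the knockouts, against 31917 to 32635 and 20639 to 23803 CPM in microglia-like cells. The part of microglial RNA in the lymphocyte values was not tested. Fcer1g had 2917 CPM over the 28 control cells with an NK marker and no Cd3d, Cd3e or Cd3g transcript. It had 987 CPM over the 73 control cells of the opposite kind. NK cells are known to use this chain together with Fcgr3.

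**Figure D5:**
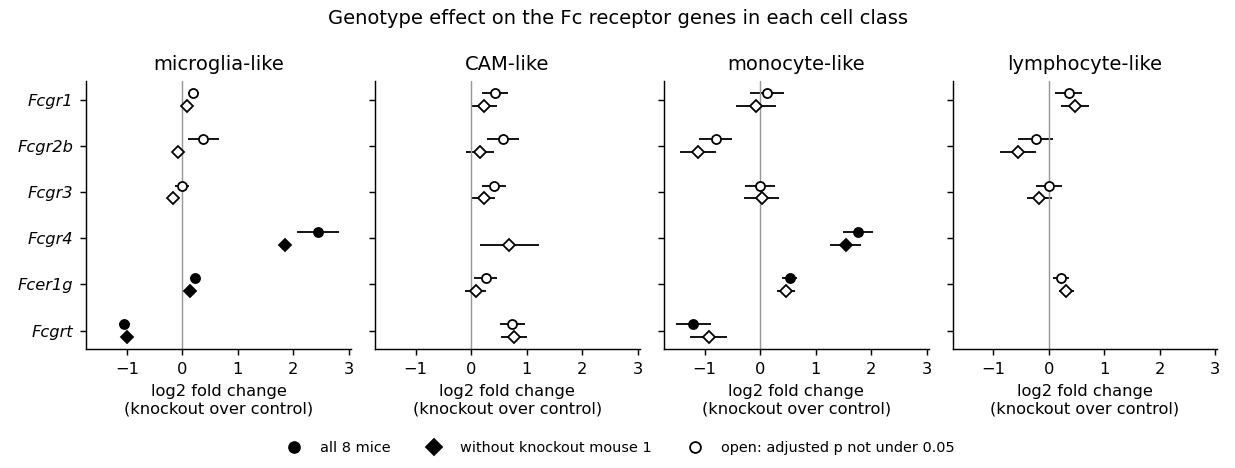
Log2 fold change of each gene, knockout over control, in the 4 cell classes with its SE, for all 8 mice (circles) and without knockout mouse 1 (diamonds), filled where the adjusted p was under 0.05. Genes under the count filter have no point. Fcgr4 was higher in microglia-like (2.44) and monocyte-like (1.76) cells, and Fcgrt was lower in both (-1.04 and -1.20).

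Over all sorted cells, including those in no named class, Fcgr4 rose (log2 fold change 2.37, SE 0.39, adjusted p = 0.000964), Fcer1g rose (0.26, SE 0.093, adjusted p = 0.0480) and Fcgrt fell (-0.98, SE 0.088, adjusted p = 2.52e-05), where 38.6% of 13312 genes passed. Without knockout mouse 1 the log2 fold changes were 1.78, 0.17 and -0.93, and all 3 passed. The call of Fcer1g held in only 2 of the 8 fits that left out 1 mouse (adjusted p up to 0.106). Fcgr2b gave 0.27 (SE 0.28, adjusted p = 0.479) with all mice and -0.17 (SE 0.054, adjusted p = 0.0279) without knockout mouse 1.

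The pathway around the receptors was described in microglia-like cells from lists of 73 genes, of which 60 were tested. Of these, 21 were higher, 20 lower and 19 did not pass, with a median log2 fold change of 0.0062 against -0.0070 over all genes. Each count of a list in these cells stands against 22.5% of all genes higher and 22.7% lower. Of the 16 genes of proximal signalling, 5 were higher and 3 lower (median -0.023). Fgr, a Src-family kinase of myeloid cells, rose by 3.50 on the log2 scale (SE 0.19, adjusted p = 3.53e-07), from 10.9 ± 3.30 to 123 ± 18.3 normalised CPM (SD, n = 4), and by 3.5998 without knockout mouse 1. Syk, the kinase that docks to the phosphorylated γ-chain, gave 0.0057 (SE 0.10, adjusted p = 0.974), and Lyn gave -0.051 (SE 0.052, adjusted p = 0.451).

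Of the 12 genes listed as the inhibitory arm, 3 were higher and 4 lower (median -0.050). Among the 3, Lilra5, does not do what the name of the list says, being known as an activating receptor that pairs with the γ-chain, and it rose by 1.87 on the log2 scale (SE 0.066, adjusted p = 4.69e-08). Lilrb4a, an inhibitory receptor, rose by 3.91 (SE 0.36, adjusted p = 9.56e-06), from 6.94 ± 1.54 to 100.2 ± 50.5 normalised CPM, and by 3.53 without knockout mouse 1. Inpp5d, the inositol phosphatase recruited by Fcgr2b, gave -0.11 (SE 0.052, adjusted p = 0.120). The 3 tested genes of the list called partner chains, Tyrobp, B2m and Hcst, were all higher (median 0.65). Of these, only B2m is named above as the partner of a member. Tyrobp, an adaptor with an activating motif like that of Fcer1g, rose by 0.65 (SE 0.11, adjusted p = 0.000568) from 2683 ± 52.6 to 4207 ± 699 normalised CPM, and by 0.76 without knockout mouse 1.

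Of the 14 genes that act with Fc receptors in phagocytosis, 4 were higher and 9 lower (median -0.26), against 22.5% and 22.7% of all genes. Wasf2, a WAVE protein that activates the Arp2/3 complex, fell by 0.81 (SE 0.072, adjusted p = 7.76e-06), from 575 ± 31.1 to 329 ± 29.2 normalised CPM, and Rac1, the GTPase upstream of it, fell by 0.33 (SE 0.051, adjusted p = 0.000362). Myo10, an unconventional myosin of filopodia and phagocytic cups, rose by 3.66 (SE 0.28, adjusted p = 2.58e-06), from 2.87 ± 0.50 to 35.8 ± 13.1 normalised CPM.

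Among the 12 other receptors for immunoglobulin or Fc receptor-like genes, 4 were tested and 2 were lower. Fcrl1 fell by 1.82 (SE 0.11, adjusted p = 6.29e-07), from 35.8 ± 2.41 to 10.2 ± 1.59 normalised CPM, and Fcrls, a marker of homeostatic microglia, fell by 0.76 (SE 0.055, adjusted p = 1.96e-06). Of the 9 immunoglobulin chain genes, 5 were tested and 2 were lower, Ighd by 1.77 (SE 0.23, adjusted p = 0.000121) and Ighm by 0.77 (SE 0.16, adjusted p = 0.0025). The 6 B cell markers, Ighd among them, summed to 50.6 to 55.2 CPM in the microglia-like cells of the controls and 9.09 to 20.0005 CPM in those of the knockouts, and their part in the immunoglobulin values was not tested. All 6 interferon-induced genes tested were higher (median 2.20), against 22.5% of all genes. Summed, they had 128 to 152 CPM in the microglia-like cells of the controls and 381 to 510 CPM in those of the knockouts, and their relation to Fcgr4 was not tested. In CAM-like cells, 2 of the 4 interferon-induced genes tested passed, both higher, against 1.06% of all genes that passed in either direction, and no gene of the other lists passed. In monocyte-like cells 2 of the 15 proximal signalling genes tested were higher, against 2.7% of all genes, and the immunoglobulin gene tested, Ighm, was lower (log2 fold change -1.19, adjusted p = 0.0131), against 4.64% of all genes, while no gene of the other lists passed.

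By likeness of log2 CPM over 42 sums per cell class and mouse, among 6802 genes with a mean of at least 20 CPM, Fcer1g was nearest to Tyrobp (Pearson r = 0.95), Tnfrsf1a and Ccl6. Fcgr1 was nearest to Ntpcr (0.95) and Dhrs3, Fcgr3 to Trf (0.90), Atp6v0b and Itm2b, Fcgr2b to Clta (0.84), Nrros and Fam174a, Fcgr4 to Apobr (0.81), Ifitm3 and Ifi211, and Fcgrt to Hfe (0.81), Prxl2b and Stard8. Sums of 1 mouse share its tag and library, so these values describe the sums only.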

How the data were processed

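Brain CD45+ cells of 8 mice were sequenced as 1 multiplexed 10x library. The authors deposited UMI counts per gene and cell, 1 table per mouse (mm10; Cell Ranger 7.1.0 in the file headers, 6.1.2 in the submitters' processing notes), and the pooled raw counts. Genotype came from the tag list in the labels. The labels' protocol speaks of 6 multiplexed samples where 8 tags were listed and found, and the own tag led in 98.9% to 100% of cells. Cells with under 200 genes or over 20% mitochondrial UMIs were left out (19863 kept), and no doublet caller was run on the deposited counts, so doublets within a mouse remain. Cells were clustered with Seurat 5.3.0 (9998 variable genes without the 6 members, 20 principal components, resolution 0.8) and named "-like" from marker lists. A cluster of 1285 cells led by hemoglobin genes and Ms4a7, 97.5% from knockout mice, and 2 clusters of low UMI count (1507 cells) stayed unnamed and outside the classes. The hemoglobin-led cluster held 7.79% to 15.9% of the cells of each knockout mouse. Its knockout cells had 17077 CPM of the 12 microglia markers, and the microglia-like values leave them out. Adding this cluster was 1 of 21 alternatives for microglia-like cells, and Fcgr4 and Fcgrt passed in all 21.

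UMIs were summed per mouse and class (at least 10 cells). CPM is UMIs per 1000000 UMIs of the sum, and normalised CPM uses TMM library sizes. edgeR 4.0.16 quasi-likelihood fits with filterByExpr tested knockout against control over all genes, with Benjamini-Hochberg adjustment, and DESeq2 1.42.0 was an alternative. These edgeR fits return no SE, so the SE given is the size of the log2 fold change over the square root of the F statistic. The fits were tested on simulated data. The alternatives were other size factors, no count filter, a replicate block, leaving out each mouse, free-RNA subtraction, other cell filters, clusterings and thinning. Further alternatives added the hemoglobin-led cluster or the clusters of low UMI count to the microglia-like cells. No test is given for the ratio of receptors, since it is a score over chosen members. The members and gene lists were chosen with earlier results of these data known. Named genes were the members, the 3 largest rises and falls among the lists with groups that did not overlap, Tyrobp and B2m, and the 3 nearest genes of each member, of which 1 is not reported here. Other genes named with values, among them Syk, Lyn, Inpp5d, Lilra5, Rac1, Fcrls, Ighm and the monocyte and dendritic cell markers, were chosen after their values were seen.
The p-values measure the spread between mice of 1 pool.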

Additional observations from a re-analysis of the deposited data

Results flagged for a closer look

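In 4 mice per group, a mouse was picked out where its gap to the nearest other mouse exceeded Dixon's 95% critical value as a share of the group's range, which chance gives in about 1 in 20 groups, and 7 of 62 groups examined had such a mouse. Knockout mouse 1 was the distant one in 6 of the 7. In its microglia-like cells Fcgr2b stood at 395 CPM, Fcgr4 at 164 CPM and Fcer1g at 3105 CPM, and after thinning to 2000 UMIs Fcgr1 was found in 52.4%, Fcgr2b in 53.3% and Fcgr4 in 27.7% of the cells, each above the other 3 knockouts. The remaining case was control mouse 3, with Fcgr2b in 31.7% of microglia-like cells, above the other 3 controls.

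The genotype effect on Fcgrt was larger by 1.72 on the log2 scale in CAM-like than in microglia-like cells (edgeR, adjusted p = 4.20e-11), with values above all controls in CAM-like cells of 3 of 4 knockout mice and below all controls in microglia-like cells of 4 of 4. The genotype effect on Fcgr2b differed by -1.25 between monocyte-like and microglia-like cells (adjusted p = 0.00167).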

How the results depend on the processing

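Of 443 log2 fold changes of the members recomputed under the alternatives, 379 kept direction and side of the threshold, 27 lost the call, 3 gained it and 34 changed sign. The rise of Fcgr4 and the fall of Fcgrt in microglia-like cells passed in all 8 fits that left out 1 mouse (log2 fold changes 1.85 to 2.62 and -1.16 to -0.98). Fcgr3, near 0 in the report, turned to 0.0028 under DESeq2, 0.0027 under median-of-ratios size factors and 0.00097 with no count filter in microglia-like cells. In monocyte-like cells it turned to 0.0064, 0.012, 0.017 and 0.069 under DESeq2, no filter, the replicate block and 10% free-RNA subtraction. In lymphocyte-like cells it turned to -0.0070, -0.011, -0.014 and -0.040 under DESeq2, median-of-ratios factors, the block and 10% subtraction. Thinning to 1000 UMIs gave -0.030 percentage points for the share of Fcgr1. With no count filter, 1 member was called in CAM-like cells (Fcgr4, 1.31, adjusted p = 0.0214) and 1 in lymphocyte-like cells (Fcgr4, 1.89, adjusted p = 0.0404). The shares of all genes given above belong to the filtered fits, so these calls stand without a background and are not read as results.

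Leaving out 1 mouse at a time, the log2 fold change ranged from -0.087 to 0.53 for Fcgr2b and -0.17 to 0.075 for Fcgr3 in microglia-like cells, from -0.079 to 0.32 for Fcgr1 and -0.21 to 0.17 for Fcgr3 in monocyte-like cells, from -0.55 to 0.00053 for Fcgr2b and -0.17 to 0.12 for Fcgr3 in lymphocyte-like cells, and from -0.17 to 0.40 for Fcgr2b and -0.16 to 0.059 for Fcgr3 over all cells. The members called in monocyte-like cells ranged from 1 to 3, being 1 when any 1 of the control mice was left out or without knockout mouse 1. The members whose effect differed between CAM-like and microglia-like cells ranged from 1 to 2 (Fcgr4 passed without control mouse 2 or knockout mouse 3), and the difference for Fcgrt between monocyte-like and microglia-like cells from -0.50 to 0.033. The members whose shares did not overlap ranged from 2 to 5, being 5 without knockout mouse 1, and the differences in share from -2.26 to 1.29 points for Fcgr1, -3.68 to 5.89 for Fcgr2b and -0.039 to 0.47 for Fcer1g. Shares in thinned cells were computed for the members only, so these counts of members have no background over all genes. Depth limits Fcgr4 and Fcgrt in lymphocyte-like and Fcgr4 in CAM-like cells, which were under the count filter.

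Mice with the same number did not deviate together (correlations -0.0706 to -0.00943), so the numbers do not pair them. A replicate block ended the call of Fcer1g in microglia-like cells (0.22, adjusted p = 0.0646) and over all cells (0.25, adjusted p = 0.0581), and called Fcgr2b in monocyte-like cells (-0.84, adjusted p = 0.0335).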
